A study of Mus musculus with 13 samples.

Results

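The genes described here are 10 mouse genes of bile acid synthesis and transport, Cyp7a1, Cyp7b1, Cyp8b1, Cyp27a1, Slc10a1, Slc10a2, Abcb11, Baat, Slc27a5 and Nr0b2. They were chosen by gene symbol, and all 10 were found among the 11779 genes that the deposited liver table lists. The study asked what the loss of the lncRNA LL35, also named Falcor, does to hepatocytes. LL35 ASO livers came from 3 Balb/c mice given GalNAc-conjugated antisense oligonucleotides against LL35, and Luc ASO livers came from 3 Balb/c mice given a GalNAc-conjugated oligonucleotide against firefly luciferase, which mice do not have. RNA was taken from the liver at day 5 in both groups. The GalNAc sugar directs an oligonucleotide to hepatocytes, and no liver without an oligonucleotide was among the groups. The labels give a dose of 150 mg/kg for each LL35 oligonucleotide, while the methods of the study give the same figure for the mix as a whole. Cultured AML12 hepatocytes, 3 libraries with the Luc ASO and 4 with LL35 ASOs at day 2, were not analysed here.

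Each gene has a single usable value in the deposited table, the authors' mean normalized count over the compared liver libraries. It pools LL35 ASO and Luc ASO livers, so it describes the level of a gene in these livers together and has no value for a single mouse, no spread and no test. The difference between the groups stands in the table only as the authors' own comparison, which was not used here. How many reads stand behind each mouse is not known, and neither is the precision of each level. As the samples are bulk tissue, fewer cells of a type and less RNA per cell cannot be told apart. Counts rise with the length of a transcript, so ratios between genes were taken after dividing by the exon length of the gene in GENCODE M21, and per kb means per kb of exon unless coding sequence is named. Positions among all listed genes are also given for the mean normalized count before division. Exon length counts every annotated base, so where the longest coding sequence as divisor turns a direction or moves a ratio by over 1.5 times, that value stands beside it. Over all listed genes the median mean normalized count was 235, and the median per kb was 51.5. The lowest mean normalized count listed was 15.6. A gene that is not listed has no value here, so it cannot be taken as absent from these livers. The medians and percentages do not include such genes.

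Bile acids are made from cholesterol in hepatocytes. In the classic pathway Cyp7a1 sets the rate by adding a hydroxyl group to cholesterol, and in the alternative pathway Cyp27a1 acts first and Cyp7b1 follows. Cyp8b1 directs the product towards cholic acid, Slc27a5 and Baat join bile acids to taurine or glycine, and the export pump Abcb11 (BSEP) moves them into bile. They return through Slc10a2 (ASBT), best known from the ileum, and Slc10a1 (NTCP), which takes them from blood into hepatocytes. Bile acids bind the nuclear receptor Nr1h4 (FXR), which raises Nr0b2 (SHP), a repressor that acts on Nr5a2 (LRH-1) and Hnf4a at Cyp7a1 and Cyp8b1.

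The promoters of 3 of these genes are shown because each holds a match to the binding sequence of a regulator whose own level is given with the regulators. They are the 250 bases before the start of the gene on its own strand, from RefSeq on GRCm38.p6, and capitals mark the matches. Promoters were matched by symbol for 6 of the 10 genes, and the genes without an entry were Cyp7a1, Cyp7b1, Baat and Slc27a5.
Cyp8b1, chr9:121916306-121916555, minus strand: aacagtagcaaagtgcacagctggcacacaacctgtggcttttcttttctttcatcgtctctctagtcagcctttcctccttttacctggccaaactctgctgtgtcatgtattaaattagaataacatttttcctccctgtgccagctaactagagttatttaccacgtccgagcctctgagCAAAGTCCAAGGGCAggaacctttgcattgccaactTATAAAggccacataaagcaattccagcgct
Abcb11, chr2:69342617-69342866, minus strand: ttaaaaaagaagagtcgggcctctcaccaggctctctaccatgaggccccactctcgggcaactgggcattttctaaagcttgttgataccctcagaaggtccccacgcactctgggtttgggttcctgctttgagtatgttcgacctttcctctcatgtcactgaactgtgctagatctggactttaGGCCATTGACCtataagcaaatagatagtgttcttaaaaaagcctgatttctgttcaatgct
Nr0b2, chr4:133553126-133553375, plus strand: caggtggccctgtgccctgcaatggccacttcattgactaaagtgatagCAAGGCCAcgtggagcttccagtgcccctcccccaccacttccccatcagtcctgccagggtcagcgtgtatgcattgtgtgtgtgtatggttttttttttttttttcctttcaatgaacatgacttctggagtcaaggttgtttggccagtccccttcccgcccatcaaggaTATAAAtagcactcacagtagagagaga

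In the Cyp8b1 promoter the Hnf4a sequence CAAAGTCCA covers bases 67 to 59 before the start, and the Nr5a2 sequence CAAGGNCA covers bases 60 to 53, so the pair overlap at their ends. The TATA box TATAAA follows at bases 31 to 26. The Nr0b2 promoter holds CAAGGNCA at bases 201 to 194 and TATAAA at bases 28 to 23. The Abcb11 promoter holds the inverted repeat that Nr1h4 binds together with Rxra, searched as GGNCA and TGNCC with 1 base between them, at bases 62 to 52. The searched pattern, with its open bases, is its own reverse complement, so any match to it is found on both strands.

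These letters were searched on both strands in windows of 250 bases before 32807 starts. CAAGGNCA was found in 5.53% of the windows, TATAAA in 12.4%, the inverted repeat in 0.576% and CAAAGTCCA in 0.384%. Over the 11954 windows of genes in the liver table the shares were 4.43%, 6.88%, 0.619% and 0.468% in the same order. Of the other promoters, those of Cyp27a1 and Slc10a2 held none of these letters. For Slc10a1 there were 2 starts, of which the upstream window held TATAAA on the reverse strand at bases 128 to 123 and the other held no match. A match is a description of the sequence, and binding was not measured. As the motifs were chosen after the promoters were seen, the shares do not test whether the matches are more frequent in these genes.

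Among the enzymes of the early steps of bile acid synthesis, Cyp7a1 and Cyp27a1 lay far above Cyp7b1, which follows Cyp27a1. Cyp7a1 had a mean normalized count of 3162, or 757 per kb, and Cyp27a1 had a mean normalized count of 3660, or 1684 per kb. Cyp7b1 was the lowest of the 10 genes, with a mean normalized count of 192, or 88.7 per kb. Per kb of exon, the level of Cyp7a1 was 8.54 times and that of Cyp27a1 was 19.0 times that of Cyp7b1.

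The value of Cyp7a1 depends on which length it is divided by, since its exons span 4174 bases and its longest coding sequence 1509. Per kb of coding sequence its level was 2095, against 2289 for Cyp27a1, and the ratio of Cyp27a1 to Cyp7a1 was 1.09 in place of 2.22 per kb of exon. Cyp7a1 then stood 16.6 times above Cyp7b1. Among the other sterol hydroxylases of the pathway, Cyp39a1 had 389 per kb of exon, Cyp46a1, the cholesterol hydroxylase best known from brain, had 7.94, and Ch25h was not listed.

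Cyp8b1, the enzyme that sets the share of cholic acid, had a mean normalized count of 2129, or 1092 per kb. Its level was 1.44 times that of Cyp7a1 per kb of exon and 0.677 times per kb of coding sequence, so the order of this pair turned with the length used. It is a gene of a single exon, of 1950 bases. All 5 genes of the ring-modifying steps were listed and 4 of them were above the median per kb. Akr1c6 was the highest at 2101 per kb, and Cyp2c70, which makes the muricholic acids of mice, had 1499 per kb, or 1.37 times the level of Cyp8b1. Hsd3b7, which acts on the ring directly after the first hydroxylation, was the lowest at 31.0 per kb. In GENCODE M21, 99.17% of its exon bases are shared with other annotated genes, counted over both strands. These are 9430064I24Rik on the other strand and Gm49388 on the same strand, so the counting could have dropped some of its reads.

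None of the 10 genes acts in the shortening of the side chain in peroxisomes, but its 7 genes were all listed and all above the median. Slc27a2, which activates the side chain, was the highest at 5436 per kb, and the peroxisomal import receptor Pex5 was the lowest at 415 per kb.

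Slc27a5, the ligase that joins bile acids to coenzyme A, was the highest of the 10 genes by mean normalized count and per kb of exon. Its mean normalized count was 7811, or 3204 per kb, and 98.9% of the listed genes were lower per kb. Baat, which then transfers the bile acid to taurine or glycine, had a mean normalized count of 2048, or 1055 per kb. The ratio of Slc27a5 to Baat was 3.04 per kb. All 6 genes of the conjugation list were above the median per kb, from the thioesterase Acot8 at 98.5 per kb to Cdo1, an enzyme of taurine synthesis, at 8602 per kb. Acnat2, an acyltransferase related to Baat, had 1198 per kb.

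Slc10a1, the sodium-dependent carrier of the blood-facing membrane, had a mean normalized count of 5864, or 2667 per kb. It stood next to Slc27a5, at a ratio of 1.20 per kb of exon, and per kb of coding sequence the order of this pair turned, with Slc10a1 1.43 times higher. Among the other uptake genes, the sodium-independent carrier Slco1b2 was the highest at 2987 per kb, 1.12 times the level of Slc10a1. All 7 uptake genes were above the median per kb.

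Slc10a2, the carrier of the same family known from ileum and bile duct epithelium, was the lowest uptake gene, with a mean normalized count of 384, or 92.5 per kb. The ratio of Slc10a1 to Slc10a2 was 28.8 per kb of exon and 14.7 per kb of coding sequence. Of 6 cholangiocyte markers only Spp1 and Sox9 were listed, at 91.9 and 9.94 per kb, and Krt19, Krt7, Epcam and Cftr were not. Slc10a2 was 1.01 times Spp1 per kb of exon and 2.15 times Spp1 per kb of coding sequence. Against Sox9 it was 9.30 times as high per kb of exon. In GENCODE M21, 18.75% of the exon bases of Spp1 are shared with Gm42793 on the same strand. The counting could therefore have dropped some reads of Spp1. Of 6 enterocyte markers only Fabp2 was listed, at 692 per kb, and neither Fabp6 nor Fgf15, the ileal genes of bile acid handling, was listed. The part of bile duct or gut cells in the level of Slc10a2 was not tested.

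Abcb11, the pump for bile acids at the bile canaliculus, had a mean normalized count of 4615, or 897 per kb. Before length was taken into account it held place 3 among the 10 genes, and per kb of exon place 6, since its exons span 5146 bases. Gm13613 and Gm13614 on the other strand overlap 3.01% of these bases, and no other of the 10 genes shares exon bases with another gene in GENCODE M21. The ratio of Slc10a1 to Abcb11 was 2.97 per kb of exon and 4.64 per kb of coding sequence. All 7 genes of export into bile were above the median mean normalized count, and 6 were above it per kb. Abcc2, the pump for organic anions such as conjugated bilirubin, was the highest at 1636 per kb, and the phospholipid transporter Abcb4 had 764 per kb. Abcg2 was the lowest at 34.8 per kb. On the side of the blood, Abcc3 had 1077 per kb and Abcc4 had 19.1 per kb, while Slc51a and Slc51b were not listed.

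Nr0b2 had a mean normalized count of 469, and its exons span only 1132 bases, so its level per kb was 414. By the mean normalized count 68.0% of the listed genes were lower, and per kb 91.7% were lower, the largest move among the 10 genes. Of the 15 regulators 11 were listed, all of them above the median. Hnf4a was the highest at 2550 per kb, or 6.16 times Nr0b2, and 14.4 times Nr0b2 per kb of coding sequence. The bile acid receptor Nr1h4 had 563 per kb, or 1.36 times Nr0b2, and its partner Rxra had 1249 per kb. Nr5a2 had 235 per kb, or 0.567 times Nr0b2, but 1.37 times Nr0b2 per kb of coding sequence. Foxa2 had 137 per kb. The receptor of the ileal hormone Fgf15 was present in its components Fgfr4 and Klb, at 160 and 129 per kb, Klb being the lowest of the listed regulators, whereas Fgf15 itself, Fabp6, Vdr and Gpbar1 were not listed.

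**Figure D1:**
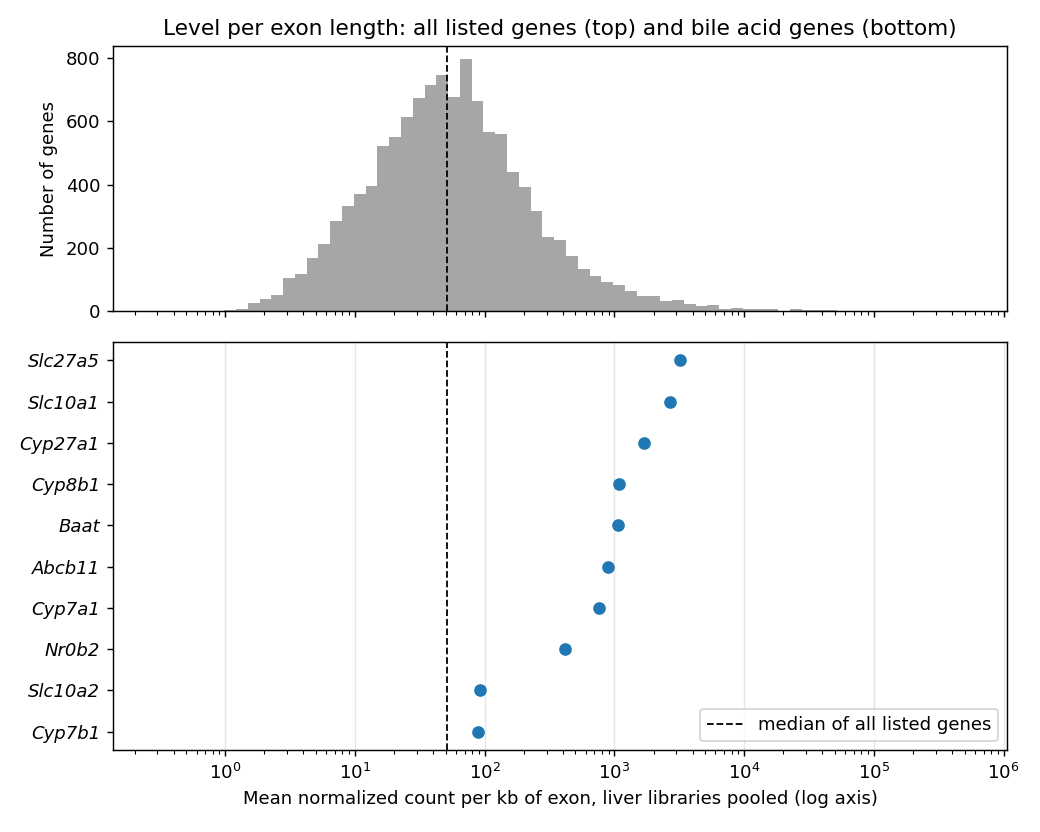
The upper panel is a histogram of the mean normalized count per kb of exon for 11754 listed genes, and the lower panel shows this value for each of the 10 bile acid genes as a point, on the same log axis. All 10 points lie to the right of the dashed median of 51.5, with 8 of them between 414 and 3204 and Slc10a2 and Cyp7b1 at 92.5 and 88.7.

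Set in order per kb of exon, the 10 genes ran from Slc27a5 through Slc10a1, Cyp27a1, Cyp8b1, Baat, Abcb11, Cyp7a1, Nr0b2 and Slc10a2 to Cyp7b1, with 36.1 times between the ends. Neighbours in this order lay close together in several places. Cyp8b1 was 1.03 times Baat, and Slc10a2 was 1.04 times Cyp7b1. The widest gap per kb of exon, 4.48 times, lay between Nr0b2 and Slc10a2. As no spread between mice could be computed, it is unknown which neighbours differ beyond it. Per kb of coding sequence the gap between Nr0b2 and Slc10a2 was 1.63 times, and the widest lay between Slc10a2 and Cyp7b1, at 2.91 times. On that scale Baat stood above Cyp8b1, Cyp7a1 moved from place 7 to place 4, and Slc10a1 came first, while Nr0b2, Slc10a2 and Cyp7b1 remained the lowest.

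In the whole table, 9 of the 10 genes were above the median mean normalized count, and 10 were above the median per kb. The exception was Cyp7b1, for which 45.0% of the listed genes were lower by mean normalized count and 66.0% were lower per kb. Per kb of coding sequence 41.8% were lower than Cyp7b1, so its side of the median depends on the length used. The 10% of genes with the highest levels per kb, those of at least 342 per kb, held 8 of the 10, and 6 of the 10 were in the highest 10% per kb of coding sequence. The median of the 10 genes was 976 per kb. Of the summed mean normalized counts of all listed genes, Slc27a5 took 0.0691%, Cyp7b1 took 0.0017% and all 10 together took 0.268%.

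**Figure D2:**
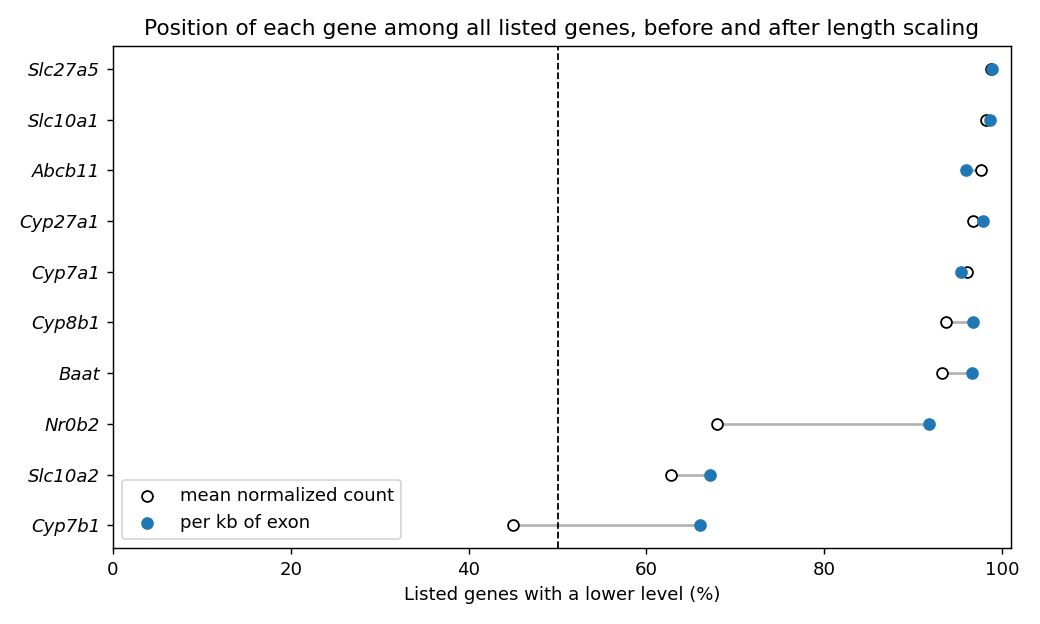
For each of the 10 genes the horizontal axis gives the percentage of listed genes with a lower level, by mean normalized count (open points) and per kb of exon (filled points), with a dashed line at 50. Nr0b2 moved from 68.0% to 91.7% and Cyp7b1 from 45.0% to 66.0%, across the line, while Slc27a5 stood at 98.7% and 98.9%.

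The pathway lists together held 57 genes, of which 50 were listed. Of these, 45 were above the median mean normalized count and 46 above the median per kb, and their median was 830.5 per kb. Without the 10 genes described, 40 pathway genes remained, 36 of them above the median on either scale, with a median of 664 per kb. The genes below the median per kb were Cyp46a1, Hsd3b7, Abcg2 and Abcc4.

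The tissue label was checked against markers. All 10 hepatocyte markers were listed, from Fah at 1899 per kb to Alb at 519840 per kb, and the level of Alb was 162 times that of Slc27a5. Markers of other liver cells were listed as well, with medians of 135 per kb for the 8 of Kupffer cells, 126 for the 6 of endothelial cells and 76.8 for the 5 of stellate cells. The highest of these was Clec4f of Kupffer cells at 791 per kb. Slc27a5, Slc10a1, Cyp27a1, Cyp8b1, Baat and Abcb11 lay above every listed Kupffer, endothelial, stellate and cholangiocyte marker. Cyp7a1, Nr0b2, Slc10a2 and Cyp7b1 did not lie above all of them. Per kb of coding sequence the highest of these markers was Dcn of stellate cells at 1458, and the 5 genes above it were Slc10a1, Slc27a5, Cyp27a1, Cyp7a1 and Baat.

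**Figure D3:**
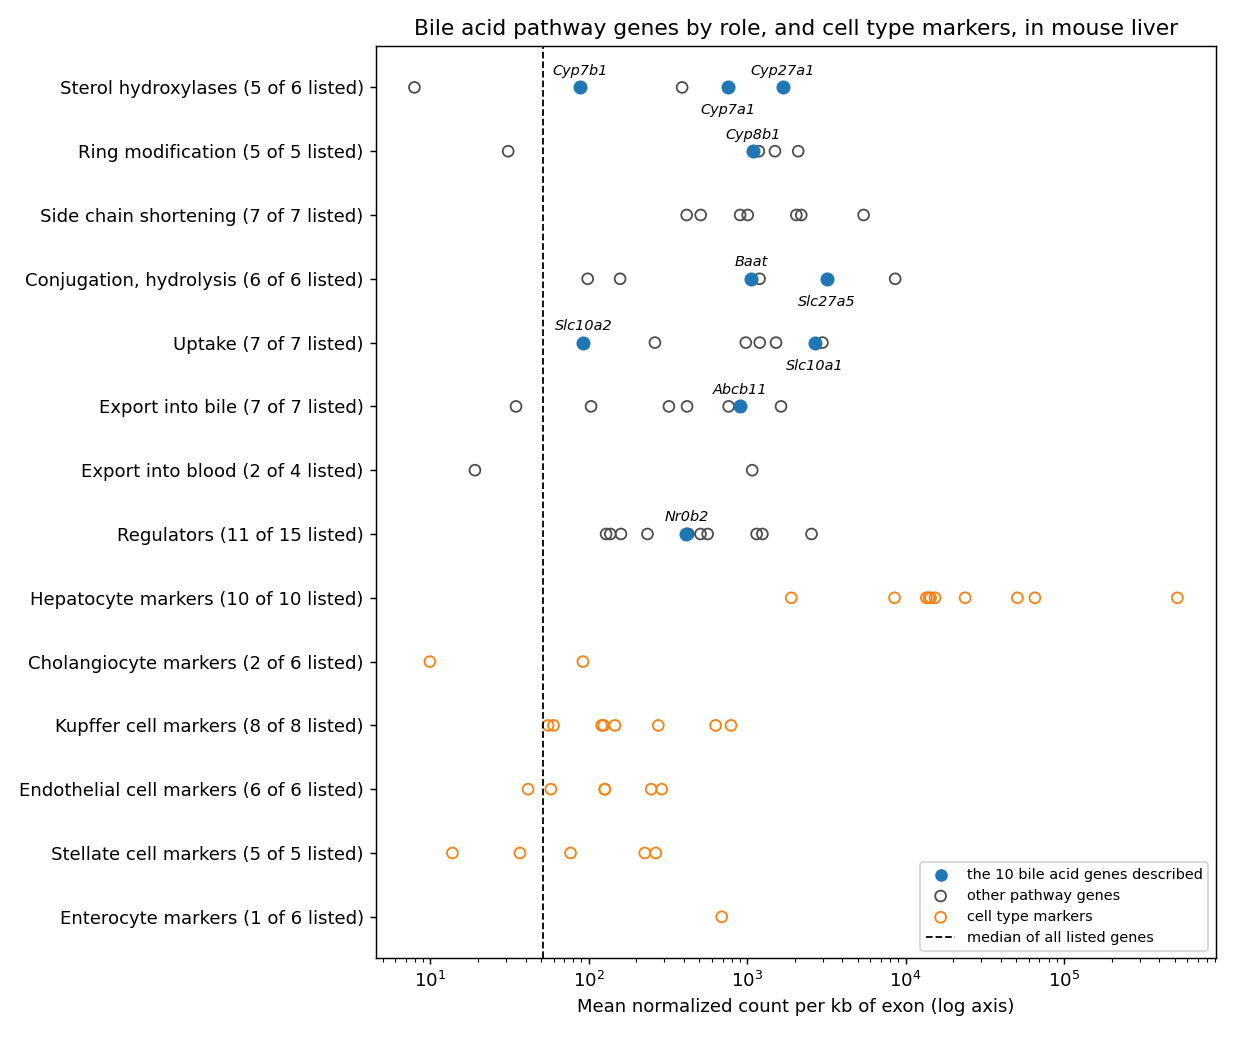
Each point is the mean normalized count per kb of exon of a listed gene on a log axis, in a row for each role in the bile acid pathway or each marker list, with the 10 genes described filled and the median of all listed genes dashed. Slc10a2 at 92.5 lies at the low end of the uptake row, beside the higher cholangiocyte marker, Spp1 at 91.9, which it exceeds 2.15 times per kb of coding sequence, while Slc10a1 at 2667 lies near its high end.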

How the data were processed

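Total RNA of 6 mouse livers was sequenced after rRNA depletion with a strand-specific kit. The authors aligned reads with STAR 2.5.3a, counted them on Ensembl genes and normalized them by the RLE method of DESeq2; the genome build and Ensembl release are not given in the sources used here. The deposited table of 11779 genes holds the authors' mean normalized count, a signal that pools the liver libraries they compared. Its other columns hold the authors' own comparison of the groups (log2 fold change, standard error, statistic, p-value and adjusted p-value), which was not used. No per-mouse values were used, so no spread, test or depth is given.

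Levels were divided by the exon length from GENCODE M21 (11754 genes matched by Ensembl identifier), under Python 3.11.15 with pandas 2.3.3 and numpy 2.4.6. A percentage of lower genes is over all listed genes. Motif and rank steps were tested on simulated data. All 10 genes are named, and of each pathway list the highest and lowest gene per kb; other genes named for their role were chosen after their values were seen. Of the pathway and marker lists, 2 genes are not reported here and enter no count. Motifs were chosen after the promoters were seen. The genes and lists were chosen with earlier results of these data known. Alternatives were genes with a mean of at least 50, protein-coding genes, matching by identifier and coding length. Figures were drawn with matplotlib 3.10.9.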

Additional observations from a re-analysis of the deposited data

How the results depend on the processing

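The count of bile acid genes above the median stayed at 9 of 10 among the 9923 genes with a mean of at least 50, among protein-coding genes and with genes matched by Ensembl identifier. Per kb it was 10, also among genes with a mean of at least 50, and 9 per kb of coding sequence, an alternative chosen after the files were seen. For all pathway genes the count of 45 became 44 among genes with a mean of at least 50, 46 per kb and 36 without the 10 genes, the last over 40 genes. Each member's percentage of lower genes moved by between -10.3 and -0.2 percentage points among genes with a mean of at least 50, by between -1.6 and 23.7 per kb, and by between -7.7 (Abcb11, from 97.6% to 89.9%) and 12.7 (Nr0b2) per kb of coding sequence. The identity of the proteins and the coding length from RefSeq proteins were not run, since no protein table was used here. No paired analysis was possible because the table holds no values for single mice, and for the same reason no mouse could be left out. How far depth limits these levels is unknown.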
